A study of Mus musculus with 10 samples.

Results

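The genes described here are 10 genes of calcium, phosphate and vitamin D handling in the kidney, named by symbol. They are Trpv5, Calb1, S100g and Slc8a1 of calcium reabsorption, Slc34a1 and Slc34a3 of phosphate reabsorption, and Vdr, Kl, Cyp24a1 and Cyp27b1 of the hormones that set both. Of these 10 genes, 9 were measured among the 13837 genes of the series. The expression of Cyp27b1, the enzyme that makes active vitamin D, was not analysed here. All 9 passed the filter on low values and are among 13197 genes tested.

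RNA was taken from whole kidneys of 3-month-old mice, 5 Rragc+/+ and 5 Rragc S74N/+, with 1 library per mouse. Rragc encodes RagC, a small GTPase that signals nutrient levels to the growth kinase complex mTORC1, and the comparison asks how the allele changes gene expression in a young kidney. The S74N allele was made by CRISPR editing of the gene itself, together with silent base changes, so every cell of the body carries 1 changed and 1 normal copy, and no promoter or Cre limits it to a cell type. The sources used here do not give the sex of these mice, the time of day or the feeding state. Transcripts of 4 Y-linked genes were measured in all 10 libraries, and Xist was not among the genes of the series. The normalized count of Rragc itself was 285 ± 42.3 (SD, 5 mice) in the wild type and 216 ± 23.6 (SD, 5 mice) with the allele (adjusted p = 0.0678 by limma). In 4 mice with the allele it was under the lowest wild-type mouse. The adjusted p was 0.0572 by edgeR and 0.0312 by DESeq2, and an exact permutation test gave p = 0.0238. The level of Rragc does not check the genotype, since the edit changes the coding sequence. The labels say that each library is a separate mouse of the given genotype.

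A normalized count is the number of reads on a gene divided by a factor for the library's depth, and the libraries held 6501552 to 7996087 reads on genes. The reads come from the 3′ ends of transcripts. Fold changes are differences of log2(normalized count + 1), Rragc S74N/+ minus Rragc+/+, and a gene is called when its limma p, adjusted by the Benjamini-Hochberg method over all 13197 genes, is under 0.05. Two-sided exact permutation tests on single values cannot go below p = 0.00794 with 5 mice against 5. The library code numbers fall into a lower run of 3 mice (2 Rragc+/+ and 1 Rragc S74N/+) and a higher run of 7, and the labels do not say what the runs are. Rragc S74N/+ replicate 5 lay far from the other Rragc S74N/+ mice in Slc8a1 and Umod. Values without it are given for these and some other genes. Whole kidney was sequenced, so fewer cells of a type and less RNA per cell cannot be told apart.

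The kidney filters calcium and phosphate from the blood and returns most of both. Proximal tubule cells take up phosphate through the sodium-phosphate cotransporters of the Slc34 family, which parathyroid hormone and FGF23 withdraw from the membrane. In the late distal convoluted and connecting tubules, calcium enters through the channel TRPV5, is carried by calbindins and leaves at the other side through an exchanger and a pump. Active vitamin D acts through its receptor VDR on genes of both routes, and klotho is the co-receptor of FGF23.

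Among the 9 measured genes, Slc34a3 fell in Rragc S74N/+ kidneys and the other 8 were not called (limma, adjusted p under 0.05). Of all genes tested, 3.69% were called, 2.02% as lower and 1.67% as higher. The fold changes were negative in 7 of the 9 genes and positive in 2, with a median of -0.13 on the log2 scale, against 0.0005 over all genes. At an unadjusted p under 0.05 there were 2 genes, Slc34a3 and Slc8a1, against 15.4% of all genes. On whole reads, edgeR and DESeq2 each called 1 of the 9, against 3.64% and 4.91% of all genes. Slc34a3 was also the 1 gene of the 9 in which the genotypes did not overlap, while 5.0% of all genes did not overlap, 2.71% with the lower values in Rragc S74N/+.

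**Figure D1:**
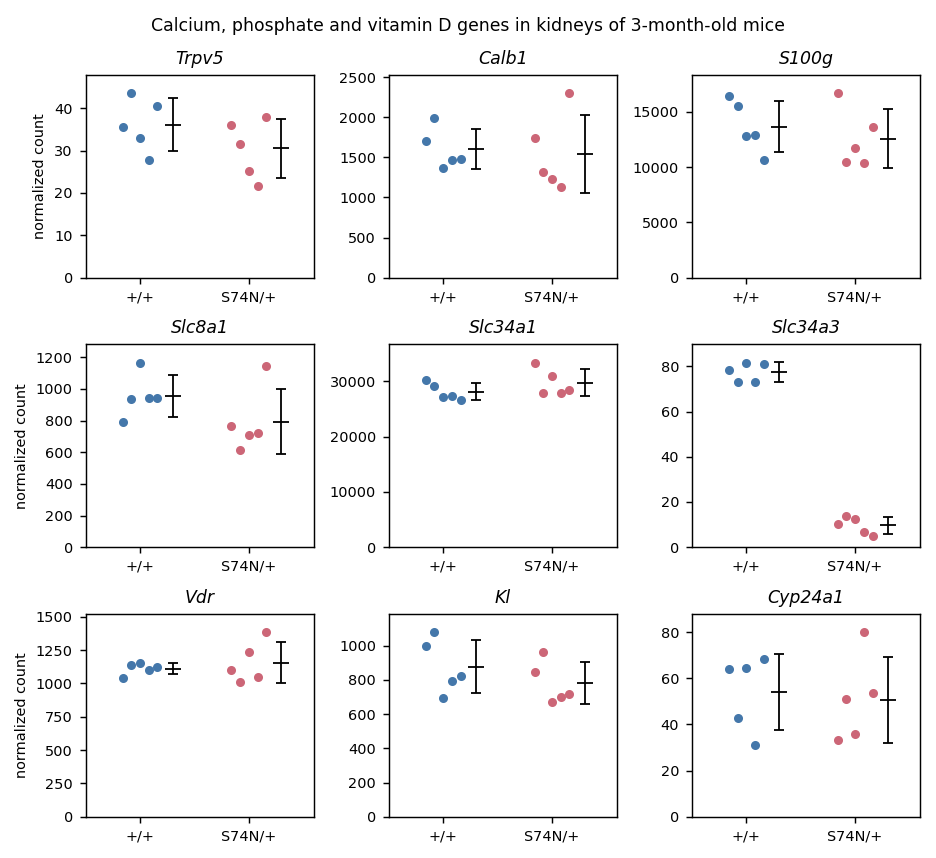
Normalized counts of the 9 measured genes in each mouse, with Rragc+/+ in blue, Rragc S74N/+ in red, and the mean and SD of 5 mice beside the points. All panels start at 0, and Slc34a3 is the gene whose groups do not overlap, with 72.9 to 81.6 in Rragc+/+ and 4.87 to 13.9 in Rragc S74N/+ mice.

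Slc34a3 encodes NaPi-IIc, a sodium-phosphate cotransporter of the proximal tubule brush border. Its normalized counts were 78.5, 72.9, 81.6, 72.9 and 81.1 in Rragc+/+ mice and 10.4, 13.9, 12.6, 6.92 and 4.87 in Rragc S74N/+ mice. Every Rragc S74N/+ kidney lay far under every Rragc+/+ kidney, and Rragc S74N/+ replicate 5 was the lowest of all. The mean fell from 77.4 ± 4.29 (SD, 5 mice) to 9.75 ± 3.81 (SD, 5 mice), which is 7.94-fold lower, or 12.6% of the Rragc+/+ mean. The log2 fold change was -2.95 (SE 0.24, 95% interval -3.46 to -2.43, adjusted p = 5.41e-07 by limma), with p = 0.00794 by exact permutation. By size it was the 7th most lowered of the 13197 genes tested and by p the 16th.

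The counts behind Slc34a3 were low, with 68 to 86 reads in Rragc+/+ and 5 to 15 reads in Rragc S74N/+ libraries. It reached the filter of 10 normalized counts in all 5 Rragc+/+ mice and in 3 Rragc S74N/+ mice, and it was also called when no filter was used. It was called in all 10 fits without 1 of the mice, and without Rragc S74N/+ replicate 5 its log2 fold change was -2.75. Among the 7 mice of the higher code run the value was -3.01 (adjusted p = 0.000277 by limma), and with a covariate for the run it was -2.94 (adjusted p = 2.06e-06 by limma).

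Slc34a1 encodes NaPi-IIa, the other sodium-phosphate cotransporter of the proximal tubule among the members. Its normalized counts were 30222, 29112, 27137, 27269 and 26565 in Rragc+/+ mice and 33360, 27919, 30993, 27786 and 28406 in Rragc S74N/+ mice. The groups overlapped, and the highest value belonged to a Rragc S74N/+ mouse. Among the 7 mice of the higher code run the Rragc S74N/+ values lay above the Rragc+/+ values. In those mice 16.4% of all genes did not overlap, and the log2 difference of Slc34a1 was 0.09 (adjusted p = 0.662 by limma). On the log2 scale the genotypes differed by 0.08 with a 95% interval from -0.11 to 0.27 (adjusted p = 0.754 by limma).

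The log2 ratio of Slc34a3 to Slc34a1 in each mouse is given as a description with no test, since the pair was chosen after its values were seen. It differed by -3.03 between Rragc S74N/+ and Rragc+/+ mice, by -3.10 within the higher code run and by -2.84 without Rragc S74N/+ replicate 5.

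The third gene of the family, Slc34a2, encodes NaPi-IIb, best known from the intestine and lung. It had 9.13, 8.00, 5.67, 13.9 and 9.61 normalized counts in Rragc+/+ and 20.9, 33.4, 10.5, 32.6 and 25.3 in Rragc S74N/+ mice. In 4 Rragc S74N/+ mice it was above the highest Rragc+/+ mouse, and the groups overlapped through the remaining mouse, replicate 3. It rose by 1.26 on the log2 scale (SE 0.33, adjusted p = 0.0387 by limma, exact permutation p = 0.0159). It passed the filter with 1 Rragc+/+ and 5 Rragc S74N/+ mice, was called in 2 of the 10 fits without 1 of the mice, and had an adjusted p of 0.151 among the higher code run. Its log2 ratio to Slc34a1 differed by 1.18, with overlap between genotypes.

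**Figure D2:**
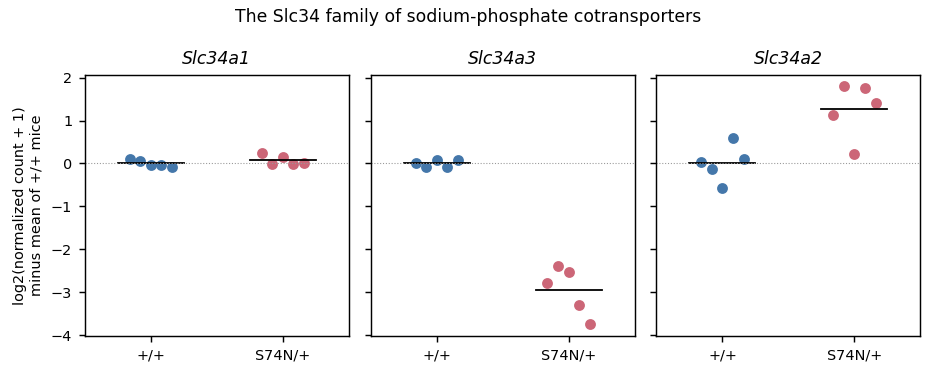
Each mouse's log2(normalized count + 1) for the 3 Slc34 genes, minus the mean of Rragc+/+ mice, with lines at the group means. Slc34a1 stays near 0 in both genotypes, Slc34a3 lies at a mean of -2.95 in Rragc S74N/+ mice, and Slc34a2 at 1.26 with 1 mouse inside the Rragc+/+ range.

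The 250 bases before the start of Slc34a3, Slc34a1 and S100g are shown because Slc34a3 is the gene called, Slc34a1 is its family member that was not, and S100g is the only other member whose window held the hexamer searched. They are read from RefSeq promoter windows on GRCm38.p6, which is not the build of the counts, on the strand of the gene. Windows were matched for 8 of the 10 members, Cyp27b1 among them. Capitals mark the hexamer AGGTCA that many nuclear receptors bind or, on the other strand, TGACCT. The windows are chr2:25234235-25234484 on the minus strand for Slc34a3, chr13:55399398-55399647 on the plus strand for Slc34a1 and chrX:162964600-162964849 on the minus strand for S100g.
Slc34a3: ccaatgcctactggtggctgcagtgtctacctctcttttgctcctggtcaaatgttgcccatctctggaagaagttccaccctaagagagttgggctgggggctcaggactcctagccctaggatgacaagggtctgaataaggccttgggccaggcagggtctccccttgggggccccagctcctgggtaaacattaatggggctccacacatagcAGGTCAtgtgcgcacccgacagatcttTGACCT
Slc34a1: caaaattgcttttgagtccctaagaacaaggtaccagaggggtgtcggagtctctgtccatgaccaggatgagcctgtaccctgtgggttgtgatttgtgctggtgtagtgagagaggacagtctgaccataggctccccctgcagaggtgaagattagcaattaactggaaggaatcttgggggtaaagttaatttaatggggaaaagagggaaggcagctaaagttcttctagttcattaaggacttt
S100g: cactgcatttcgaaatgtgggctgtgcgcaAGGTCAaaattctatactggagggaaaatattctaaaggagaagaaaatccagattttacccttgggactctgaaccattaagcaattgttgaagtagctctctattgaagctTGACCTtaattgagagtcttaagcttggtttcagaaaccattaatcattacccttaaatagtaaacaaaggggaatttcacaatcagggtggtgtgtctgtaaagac

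Counted from the start site, the Slc34a3 window held AGGTCA at -33 to -28 and TGACCT at -6 to -1, the last bases before the start. The S100g window held AGGTCA at -220 to -215 and TGACCT at -107 to -102, and that gene was not called. Over 32851 windows of the same length, 14% held at least 1 such hexamer on either strand and 1.34% held 2 or more. The VDR-type repeat, AGGTCA or GGGTCA or AGTTCA or GGTTCA, 3 bases of any kind and a further such hexamer on the same strand, was in 0.0396% of windows and in 0 of the 8 members. The E-box CACGTG, which reads the same on both strands, was in 6.02% of windows and in 0 of the members. These are matches of letters in a short window and say nothing of binding.

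Trpv5 encodes the calcium channel through which calcium enters distal tubule cells. Its normalized counts were 35.6, 43.6, 32.9, 27.9 and 40.6 in Rragc+/+ mice and 36.0, 31.6, 25.2, 21.7 and 37.9 in Rragc S74N/+ mice. The groups overlapped, with 2 Rragc S74N/+ mice under the lowest Rragc+/+ mouse. Its log2 fold change was -0.25 with a 95% interval from -0.68 to 0.18 (adjusted p = 0.636 by limma), and -0.14 without Rragc S74N/+ replicate 4.

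Calb1 and S100g encode calbindin-D28k and calbindin-D9k, the proteins that carry calcium through the cell. Calb1 had 1706, 1988, 1363, 1467 and 1479 normalized counts in Rragc+/+ and 1742, 1315, 1235, 1128 and 2302 in Rragc S74N/+ mice. Its lowest and its highest value were both in Rragc S74N/+ mice, the highest in replicate 5. The log2 fold change was -0.09 (95% interval -0.42 to 0.24, adjusted p = 0.852 by limma), and without that mouse it was -0.25. Without Rragc S74N/+ replicate 4 it was 0.0105. S100g had 16464, 15562, 12783, 12938 and 10624 normalized counts in Rragc+/+ and 16709, 10459, 11713, 10371 and 13677 in Rragc S74N/+ mice. Its log2 fold change was -0.13 (95% interval -0.41 to 0.16, adjusted p = 0.74 by limma), and the groups overlapped.

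S100g differed between the runs of library codes, a comparison chosen after the values were seen and given with no test. The 3 mice of the lower run had 15562 to 16709 normalized counts and the 7 mice of the higher run 10371 to 13677, with no overlap. The difference between runs was 0.46 on the log2 scale. For Kl and for Calb1 it was 0.33, and the runs overlapped in both. With the run as a covariate the genotype difference of S100g was -0.03 (adjusted p = 0.877 by limma).

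**Figure D3:**
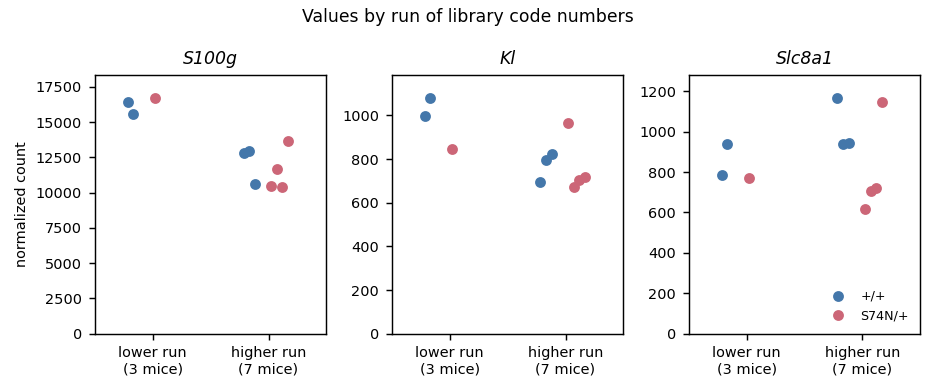
Normalized counts of S100g, Kl and Slc8a1 in each mouse by the run of library codes, with Rragc+/+ in blue and Rragc S74N/+ in red. The S100g values of the lower run, 15562 to 16709, lie above all values of the higher run in both genotypes.

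Slc8a1 encodes NCX1, the sodium-calcium exchanger through which calcium leaves distal tubule cells towards the blood. Its normalized counts were 788, 937, 1166, 941 and 942 in Rragc+/+ and 768, 616, 707, 721 and 1146 in Rragc S74N/+ mice. In 4 Rragc S74N/+ mice it was under the lowest Rragc+/+ mouse, while replicate 5 was near the highest. The log2 fold change was -0.29 (95% interval -0.58 to -0.0036), with p = 0.0475 before and 0.315 after adjustment in limma, and the exact permutation test gave p = 0.111. Without Rragc S74N/+ replicate 5 it was -0.43 and was called (adjusted p = 0.0265 by limma), so that mouse decides the call.

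Vdr encodes the vitamin D receptor. It had 1041, 1137, 1152, 1101 and 1120 normalized counts in Rragc+/+ and 1101, 1007, 1238, 1050 and 1385 in Rragc S74N/+ mice. The Rragc+/+ values lay within a narrow band, and the Rragc S74N/+ values reached beyond it on both sides. Its log2 fold change was 0.05 (95% interval -0.14 to 0.24, adjusted p = 0.858 by limma), and -0.0181 without Rragc S74N/+ replicate 5.

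Cyp24a1, the enzyme that inactivates vitamin D and is induced through its receptor, had 63.9, 42.7, 64.6, 31.1 and 68.3 normalized counts in Rragc+/+ and 33.2, 51.1, 35.7, 80.1 and 53.5 in Rragc S74N/+ mice. Mice of 1 genotype differed more than 2-fold from each other. Between genotypes the difference was -0.10 on the log2 scale with a wide 95% interval from -0.63 to 0.42 (adjusted p = 0.897 by limma). Its sign changed under 3 of the 19 alternatives.

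Kl, which encodes klotho, had 999, 1079, 694, 793 and 824 normalized counts in Rragc+/+ and 848, 964, 670, 702 and 719 in Rragc S74N/+ mice. The groups overlapped, with a log2 fold change of -0.16 (95% interval -0.42 to 0.10, adjusted p = 0.597 by limma). Among the higher code run the value was -0.02.

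**Figure D4:**
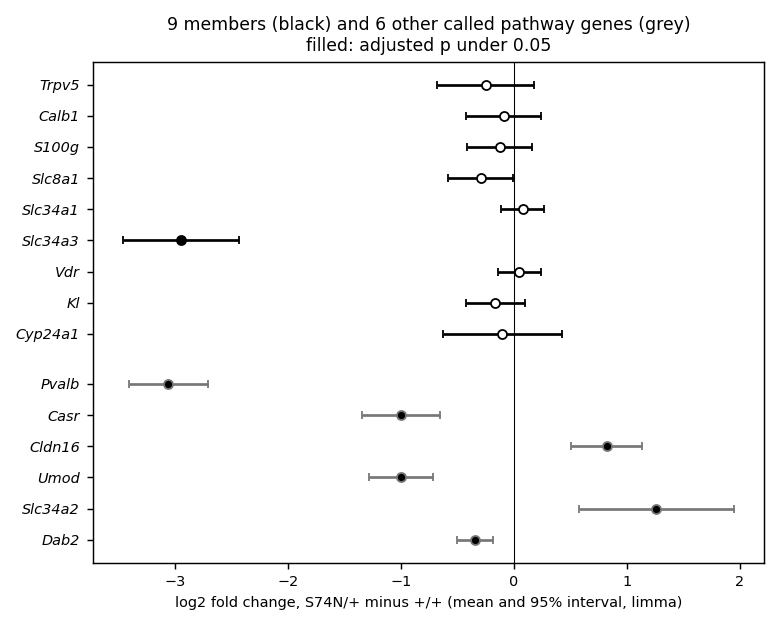
Log2 fold changes with 95% intervals from limma for the 9 members (black) and for the 6 other pathway genes called (grey), with filled points for adjusted p under 0.05. Slc34a3 at -2.95 is the only filled member, and the other 8 intervals lie within -0.68 to 0.42.

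The other genes of these pathways were taken from lists of 56 genes, of which 42 were measured and tested. Of these 42, 2 rose, 4 fell and 36 were not called, with a median log2 fold change of -0.0017. The 6 calls stand against 3.69% of all genes called. DESeq2 called 8 of the 42 (4.91% of all genes), edgeR 6 (3.64%), and limma 12 with a covariate for the code run (6.30%). Genes outside the table, among them Trpv6, Cldn14, Fgf23 and Cyp2r1, were not analysed here.

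Among 13 other calcium genes tested, 1 rose, 3 fell and 9 were not called. A covariate for the code run added calls of S100a10 and Anxa2 (adjusted p = 0.0496 and 0.039 by limma). Pvalb, the calcium-binding protein parvalbumin of the early distal convoluted tubule, fell from 134 ± 18.3 (SD, 5 mice) to 15.2 ± 2.46 (SD, 5 mice) normalized counts (-3.06 on the log2 scale, adjusted p = 5.08e-09 by limma). Casr, the calcium-sensing receptor of the thick ascending limb, fell from 105 ± 15.9 (SD, 5 mice) to 52.6 ± 10.7 (SD, 5 mice) and changed by -1.002 on the log2 scale (adjusted p = 0.00132 by limma). Cldn16, the claudin of the paracellular route for magnesium and calcium in the thick ascending limb, rose from 125 ± 29.3 (SD, 5 mice) to 219 ± 31.3 (SD, 5 mice), a log2 fold change of 0.82 (adjusted p = 0.0028 by limma). Umod, uromodulin of the same segment, changed by -0.999 on the log2 scale (adjusted p = 0.000198 by limma). Without Rragc S74N/+ replicate 5 Umod changed by -0.86 (adjusted p = 6.03e-05 by limma). Values of these 4 genes did not overlap between genotypes, against 5.0% of all genes. Klk1, tissue kallikrein, and Cldn2, the claudin of the proximal tubule, were not called, at -0.15 and 0.03 on the log2 scale (adjusted p = 0.587 and 0.897 by limma).

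Among 17 other phosphate and hormone genes, Slc34a2 rose and 16 were not called. Pth1r, the receptor of parathyroid hormone, had 5779 to 6902 normalized counts in Rragc+/+ and 7000 to 8885 in Rragc S74N/+ mice, with no overlap and a log2 fold change of 0.29 (adjusted p = 0.0778 by limma). It was called among the higher code run (adjusted p = 0.0488 by limma), with a covariate for the run (0.34 on the log2 scale, adjusted p = 0.0035 by limma) and by DESeq2 (adjusted p = 0.0255). The covariate also added calls of Enpp1, Slc9a3r1 and Slc9a3r2 in this list, and DESeq2 one of Enpp1. Pdzk1, a scaffold protein of the brush border that binds Slc34a1, had a log2 fold change of 0.13 (adjusted p = 0.533 by limma).

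Among 12 other vitamin D genes, Dab2 fell and 11 were not called. Dab2, an adaptor of the megalin endocytosis route that takes up vitamin D bound to its carrier, fell from 3689 ± 220.0 (SD, 5 mice) to 2903 ± 181 (SD, 5 mice) normalized counts (log2 fold change -0.35, adjusted p = 0.0131 by limma) and was called in 8 of the 10 fits without 1 of the mice. Lrp2, megalin itself, and Pdia3, a protein disulfide isomerase that has been described as a membrane binder of vitamin D, had log2 fold changes of -0.09 and -0.07 (adjusted p = 0.799 and 0.816 by limma).

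Markers of nephron segments moved with genotype beside these genes. The shares of all genes called were 2.02% as lower and 1.67% as higher. Of 8 markers of the distal convoluted tubule, 6 fell, and their summed normalized counts were 4407 to 5089 in Rragc+/+ and 2103 to 2654 in Rragc S74N/+ mice. Pvalb is on that list. Slc12a3 made up 57.2% of the sum in Rragc+/+ mice, and the other 7 markers summed to 1958 to 2116 and 1161 to 1370, with no overlap. Of the 6 that fell, Wnk4 (adjusted p = 0.0354 by limma) overlapped between genotypes. Wnk4 was called in 2 of the 10 fits without 1 of the mice, and Emx1 in 8. Of 8 markers of the thick ascending limb, which include Umod and Cldn16, 4 fell and 1 rose, with sums of 31966 to 41568 and 14333 to 24004. Umod made up 65.1% of that sum in Rragc+/+ mice, and the other 7 markers summed to 11562 to 13212 and 6573 to 10499. Of 10 connecting tubule and principal cell markers, 2 rose and 0 fell, with positive fold changes in 9 of 10 and a median of 0.33 on the log2 scale. The number called was 1 by edgeR (3.64% of all genes) and 5 by DESeq2 (4.91%). It was 4 with the covariate for the code run (6.30%) and 1 without Rragc S74N/+ replicate 5 (3.34%). Of the 2 genes, Hsd11b2 (adjusted p = 0.0478 by limma) was called in 4 of the 10 fits without 1 of the mice and Avpr2 in all 10. Their sums of 9932 to 12634 and 10045 to 12785 were 78.6% Klk1 in Rragc+/+ mice, and the other 9 markers summed to 2171 to 2551 in Rragc+/+ and 2662 to 4332 in Rragc S74N/+ mice, with no overlap. Aqp2, the water channel of principal cells, and Slc12a1, the cotransporter of the thick ascending limb, were not called, at 0.54 and -0.22 on the log2 scale (adjusted p = 0.0887 and 0.438 by limma), and at 0.35 and -0.08 without Rragc S74N/+ replicate 5. Aqp2 was above the highest Rragc+/+ mouse in 4 Rragc S74N/+ mice, and was called by DESeq2 (adjusted p = 0.0287) and in 1 of the 10 limma fits without 1 of the mice. Of 9 intercalated cell markers 3 fell, and of 6 podocyte markers 1 rose, against 3.69% of all genes called. Atp6v0d2, 1 of the intercalated cell markers that fell, was called in 6 of the 10 fits without 1 of the mice. The podocyte marker, Synpo (adjusted p = 0.0261 by limma), was called in 5 of the 10 fits without 1 of the mice, and neither without Rragc S74N/+ replicate 5 (adjusted p = 0.062) nor in the higher code run (adjusted p = 0.0761). The podocyte sums were 1140 to 1342 in Rragc+/+ and 1290 to 1455 in Rragc S74N/+ mice. Those full sums overlapped, and without Podxl they were 684 to 832 and 841 to 983, with no overlap. The intercalated cell sums without Atp6v1g3 were 1720 to 1947 in Rragc+/+ and 1572 to 1877 in Rragc S74N/+ mice, with overlap. The part of these segment markers in the results of the calcium genes was not tested.

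Of 12 proximal tubule markers, the segment of Slc34a3 and Slc34a1, 2 rose (Slc22a6 and Slc13a3) and 3 fell (Slc5a2, Slc5a12 and Slc7a7). Over all genes tested, 1.67% were called as higher and 2.02% as lower. The sums of these markers were 59145 to 67074 in Rragc+/+ and 66886 to 77631 in Rragc S74N/+ mice. Miox made up 23.4% of the Rragc+/+ sum, and the other 11 markers summed to 45712 to 48416 and 50054 to 56791, with no overlap. The part of these markers in the Slc34a3 result was not tested. Of 7 leukocyte and 7 endothelial markers tested, 0 were called by limma, edgeR or DESeq2, and 2 of each list had an unadjusted p under 0.05. Over all genes these tools called 3.69%, 3.64% and 4.91%, and 15.4% had an unadjusted limma p under 0.05. With a covariate for the code run, limma called 1 endothelial marker, Kdr (-0.45 on the log2 scale, adjusted p = 0.0406), which was also called without Rragc S74N/+ replicate 3 (adjusted p = 0.0228). The leukocyte sums were 1910 to 2864 in Rragc+/+ and 2208 to 3244 in Rragc S74N/+ mice. Without Cd74 they were 1129 to 1483 and 1209 to 1650, with overlap. The endothelial sums without Kdr were 2308 to 2360 and 1891 to 2327, also with overlap. Cd3e and Cd79a of the leukocyte list were not in the table and were not analysed here. None of 9 adrenal and fat markers was in the table.

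Slc12a3, the sodium-chloride cotransporter that defines the distal convoluted tubule, fell from 2698 ± 234 (SD, 5 mice) to 1179 ± 140 (SD, 5 mice) normalized counts (log2 fold change -1.20, adjusted p = 2.61e-07 by limma). The 4 calcium members of the distal nephron were set against it in each mouse, as log2 ratios chosen after the values were seen, including the fall of Slc12a3, and therefore with no test. Relative to Slc12a3, Trpv5 was higher in Rragc S74N/+ mice by 0.95, Calb1 by 1.11, S100g by 1.07 and Slc8a1 by 0.91. These differences contain the fall of Slc12a3 itself. Within the higher code run the 4 ratios differed by 0.98, 1.20, 1.13 and 0.82, and without Rragc S74N/+ replicate 5 by 0.79, 0.87, 0.96 and 0.69. The ratio of Pvalb to Calb1, both calcium-binding proteins of the distal nephron, differed by -2.97.

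**Figure D5:**
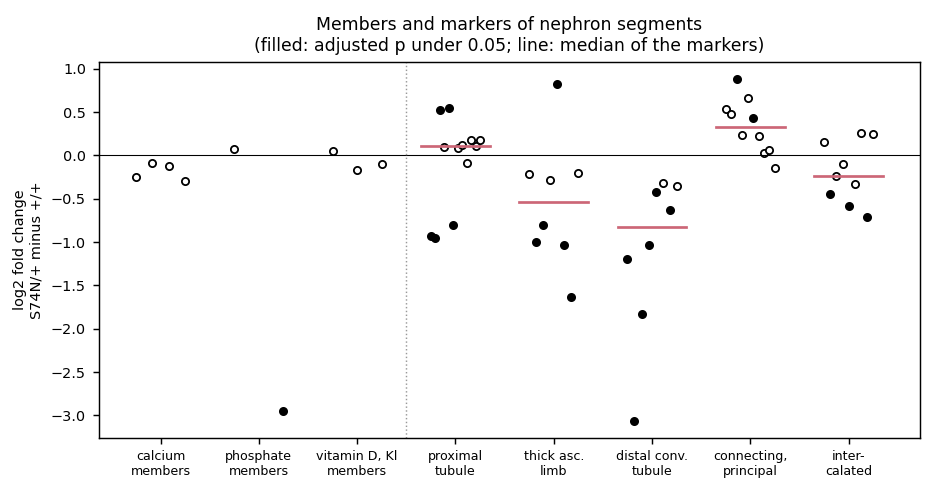
Log2 fold changes of the members by pathway and of marker genes of 5 nephron segments, with filled points for limma adjusted p under 0.05 and a line at the median of each marker list. The 4 calcium members lie between -0.29 and -0.09, while the distal convoluted tubule markers have a median of -0.83.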

How the data were processed

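Whole kidneys of 5 Rragc+/+ and 5 Rragc S74N/+ mice were profiled, 1 library per mouse, with genotypes from the labels. The authors made QuantSeq 3′ libraries, aligned reads with TopHat2 2.0.10 (Bowtie 1.0.0, SAMtools 0.1.19) to GRCm39, allowing multiple hits, and counted them by strand with HTSeq 0.6.1 on GENCODE vM26. Genes with near-identical copies are therefore uncertain. The deposited signal covers 13837 genes, the lowest with a mean of 5.64, and is a count of reads over the library's size factor. All values were whole reads after undoing this division (tolerance 0.01 reads), 6501552 to 7856363 per Rragc+/+ and 6872310 to 7996087 per Rragc S74N/+ library. Mitochondrial transcripts took 23.9% to 30.1% of reads. In the higher code run they took 28.7% to 30.1% in Rragc+/+ and 23.9% to 25.8% in Rragc S74N/+ mice, with no overlap. In the lower run they took 25.7% and 24.5% in Rragc+/+ mice and 27.1% in the Rragc S74N/+ mouse. The part of this share in the results was not tested. Precision at low values is limited by the number of reads on the gene.

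Log2(value + 1) was tested with limma 3.58.1 in R 4.3.3 (trend, no covariate, two-sided), over 13197 genes that had 10 or more normalized counts in 5 or more mice. P values were adjusted by Benjamini-Hochberg and called under 0.05. Fold changes on this scale understate those of low genes. Alternatives were pseudocounts of 0.5 and 5, no filter, a mean of at least 50, TMM rescaling, edgeR 4.0.16 and DESeq2 1.42.0 on whole reads, a covariate for the code run, the higher code run alone, and leaving out each mouse. The fits were tested on simulated data. These gave every gene the same extra variation between mice, and held no code run effect and no outlying mouse, unlike the measured data. They therefore do not give the share of false calls in the measured data. In the simulated data, limma and edgeR stayed within the limit set for false calls, which was looser than the threshold of 0.05. DESeq2 exceeded the limit first set for it, which was then not applied to it, so its larger numbers of calls are given only as an alternative. Other steps ran in python 3.11.15 with pandas 2.3.3, numpy 2.4.6 and scipy 1.17.1, and plots were drawn in matplotlib 3.10.9.

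The members and all lists were chosen with earlier results of these data known. Named are the members, called genes of the 3 pathway lists, the 2 not called genes with the highest mean in each, Slc12a3, Aqp2, Slc12a1 and Lrp2 as markers, and genes most like Slc34a3. Marker genes named for their list, and the ratios, neighbours and code run comparison, were chosen after values were seen. In the phosphate list, 2 genes entered under an old and a new symbol were counted once. Promoter windows are from RefSeq on GRCm38.p6. Livers and old kidneys were not analysed here.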

Additional observations from a re-analysis of the deposited data

Results flagged for a closer look

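A single mouse lay far from the other 4 of its genotype in 2 of the 52 groups of values examined, where chance flags about 1 in 20 groups. In Slc8a1, Rragc S74N/+ replicate 5 had 1146 normalized counts and the nearest of the other Rragc S74N/+ mice 768, a gap of 0.713 of the range (Dixon's critical value 0.71). In Umod, the same mouse had 7760 normalized counts and the nearest 11868, a gap of 0.715 of the range.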

How the results depend on the processing

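Over the 19 alternatives, Slc34a3 kept its direction, with log2 fold changes from -3.09 to -2.52, and wherever tested it was called (highest adjusted p 0.000277). A mean of at least 50 normalized counts removed Slc34a3 and Trpv5 from the test by its construction and left 0 members called, against 1 otherwise. Leaving out each mouse gave 1 to 2 members called, the second being Slc8a1 without Rragc S74N/+ replicate 5. Of 169 alternative values of members, 163 kept direction and call, 1 became called and 5 changed sign, all of genes not called. These were Calb1 at 0.0105 without Rragc S74N/+ replicate 4, Vdr at -0.0181 without replicate 5, and Cyp24a1 at 0.0343 in the higher code run alone, 0.0279 without Rragc S74N/+ replicate 1 and 0.0022 without replicate 3. With a mouse left out, Trpv5 ranged from -0.3348 to -0.1383, S100g from -0.2348 to -0.0552, Kl from -0.2440 to -0.0851, Slc34a1 from 0.0366 (without Rragc S74N/+ replicate 1) to 0.1067, Calb1 from -0.2467 to 0.0105, Vdr from -0.0181 to 0.0966 and Cyp24a1 from -0.2838 to 0.0279. Of all genes tested, 3.69% were called, 6.30% with a covariate for the code run (832 genes against 487), and 2.24% to 3.53% with a mouse left out, lowest without Rragc+/+ replicate 5 (2.24%) and replicate 4 (2.35%). Other pathway genes called numbered 6, with 12 under that covariate and 4 to 8 with a mouse left out. Members without overlap numbered 1, with 2 in the higher code run alone, the other being Slc34a1, and 1 to 2 with a mouse left out, where 16.4% and 5.73% to 7.49% of all genes did not overlap. The cause of these changes was not tested. No paired analysis was possible because the labels give no replicate numbers that link mice across genotypes.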

Other observations

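Of the 13196 other genes tested, the one whose pattern over the 10 mice was most like that of Slc34a3 was Pvalb, with a root mean square difference of 0.27 on the log2 scale after each gene was taken relative to its mean in Rragc+/+ mice. Pvalb had 116 to 160 normalized counts in Rragc+/+ and 11.7 to 17.7 in Rragc S74N/+ mice. Next was Pdzrn4, at 0.46, with 24.0 to 43.8 and 2.92 to 7.36 normalized counts. The likeness mainly reflects the size of the genotype difference, which the mice share.

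The 5 protein-coding genes on each side of Slc34a3 on chromosome 2, by their order in RefSeq, were looked up after its fall was seen. Of these 10 genes, 6 were tested and 0 were called by limma, edgeR or DESeq2, with 1 at an unadjusted p under 0.05. Over all genes these tools called 3.69%, 3.64% and 4.91%, and 15.4% had an unadjusted limma p under 0.05. Their log2 fold changes were between -0.53 (Rnf208) and 0.26 (Tor4a), with a lowest limma adjusted p of 0.279.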
